A study of Homo sapiens with 9 samples.

Results

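The cytosolic ribosomal protein genes were followed through 9 RNA-seq libraries of Daoy cells, an established medulloblastoma line. Of these, 2 were controls and 7 came from cells with a hairpin against the RNA helicase DDX3X, and 4 of the 7 also carried a tagged copy of it. The genes were chosen by name and not by their values. They are the protein-coding genes whose symbol starts with RPL or RPS and a digit, together with RPLP0, RPLP1, RPLP2 and RPSA. Pseudogenes, the L-suffixed paralogues, RPS4Y1, RPS4Y2, the RPS6 kinases and the mitochondrial ribosomal proteins were left out. Of 77 such genes, 76 reached a level of 1 in CPM (the usual depth-scaled count, here before TMM scaling) in 2 or more libraries. Of the 76, 46 were for the large subunit and 30 for the small one, among 16155 genes that reached it. The other 1 of the 77 did not. The CPM levels of genes given below are those of edgeR after TMM scaling. RPS19BP1, which binds a ribosomal protein and is no subunit, and 3 readthrough loci (RPL17-C18orf32, RPL36A-HNRNPH2 and RPS10-NUDT3) were set apart.

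There were 2 control libraries, parental Daoy (control 1) and vector control cells (control 2). Knockdown 1 and knockdown 3 came from cells with a doxycycline-inducible hairpin against the 3' UTR of DDX3X, and knockdown 2 from cells with an inducible hairpin against its open reading frame (ORF), both in tet-pLKO-puro. In 4 further libraries the cells with the 3' UTR hairpin also carried FLAG-tagged DDX3X in pCMV10-3xFlag by stable transfection. The tagged protein was the wild type in 1 library and G302V, R534H or P568L in the other 3, which form the group of mutants. The cells were polyclonal populations. The labels give 1 µg/ml doxycycline for 72 h without saying whether the controls received it. No label says that libraries of a group came from separate cultures. Libraries of a group also differ in allele (mutants), in hairpin (knockdowns) or in kind of control. The p-values measure the spread between these libraries, which holds those differences and may otherwise be technical.

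Ribosomal proteins clothe and stabilise the ribosomal RNAs of the small and the large subunit, and cells make them in nearly equal numbers, mostly from 1 active gene each. Their mRNAs are short and abundant and begin with a 5' terminal oligopyrimidine (TOP) tract, a C followed by an unbroken run of C and T, through which mTOR and LARP1 control their translation. DDX3X unwinds RNA and helps the small subunit start on mRNAs with structured leaders. The present values are mRNA levels from poly(A)-selected RNA and say nothing of translation.

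In place of the TOP tract itself, runs of C and T near the start were read from RefSeq's promoter sequences (GRCh38.p14), which held 62 of the 76 genes. Such a run need not begin with C or lie within the mRNA, and those of RPL17 and RPL19 end before the annotated start. A run of 6 or more C and T, on the sense strand and within 5 bases of the annotated start, was present in 48 of the 62 (77.4%), against 2251 of 10642 other measured protein-coding genes (21.2%). The run had a median length of 11 bases in the ribosomal protein genes and 3 in the others. The 12 windows below belong to the genes whose levels are described most closely here. They give the 12 bases before and the 14 bases from the annotated start, with the run nearest the start in capitals.
RPLP0 (chr12:120201098-120201123, minus strand): cgggcgcgaggCCCTTCTCTCgccag
RPLP1 (chr15:69452806-69452831, plus strand): taggcgcgagagCCCCTTTCCTCagc
RPLP2 (chr11:809955-809980, plus strand): cgtcggcgCCTTCCTTTTCCTCCCTg
RPL36 (chr19:5690283-5690308, plus strand): cgcggcgccagCCCTTCCgccacggc
RPL28 (chr19:55385920-55385945, plus strand): cccctcgCCTTCCTCTTTCCgtctca
RPL41 (chr12:56116621-56116646, plus strand): aacttcgCCTTTCTCTCggccttagc
RPL39 (chrX:119791617-119791642, minus strand): ttccgccagCTTCCCTCCTCTTCCTT
RPL26 (chr17:8383180-8383205, minus strand): cagcgtgtagTTCTCTTCCCTTTTgc
RPL6 (chr12:112411429-112411454, minus strand): ttgtaTCCTCagtgaatcagaaccag
RPS28 (chr19:8321484-8321509, plus strand): ccgaagcacgtgaCTCCTCTCCgcca
RPS3 (chr11:75399506-75399531, plus strand): cgcgagccaCTTCCTTTCCTTTCagc
RPS15 (chr19:1438384-1438409, plus strand): gcaggcgcggaCCaaagcgatctctt
Most of these windows hold an unbroken run across or beside the start, and the run of RPL39, of 22 bases, goes on past the window's end. RPL6 has a run of 5 bases and RPS15 one of 2, so that neither counts among the 48. In the 300 bases around the start, CCGGAAG, an ETS-type motif, was found on either strand in 33.9% of the genes and 18.3% of the others. AAGATGGC, which YY1 is known to bind, was found in 9.68% and 5.09%, and TATAAA in 8.06% and 5.77%, again on both strands. These are matches of letters, and a stretch in which CCGGAAG runs into AAGATGGC over the shared AAG counts for both. Across the 62 genes, the length of the run and the knockdown fold change had a Spearman correlation of 0.13, a description over genes that share the same libraries.

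The libraries held 8216568 to 13030572 reads on genes, and 3 counts, the limit that a count of 0 allows, came to 0.230 to 0.365 CPM. Numbers in the deposited names put control 1, knockdown 1 and knockdown 2 in 1 series (A) and the other 6 libraries in another (B). No label ties either to a sequencing run. Unaligned reads made up 5.24 to 5.73% of the reads in series A and 19.6 to 24.0% in series B. DDX3X itself stood at 682 and 452 CPM in controls 1 and 2 and at 248, 139 and 182.1 in knockdowns 1, 2 and 3, a log2 fold change of -1.60 ± 0.24 (edgeR's quasi-likelihood test, Benjamini-Hochberg adjusted p = 0.0357). It stood at 195 CPM with the wild type, 197 with G302V, 211 with R534H and 241 with P568L, so that a gain of DDX3X mRNA from re-expression was not detectable (0.24 ± 0.34 for the wild type against knockdown, adjusted p = 1). Of 15 medulloblastoma and cerebellar precursor markers, 12 reached the level of measured genes, and ATOH1, BARHL1 and NEUROD1 did not. None of 7 haematopoietic markers did, and CDH1, EPCAM and KRT5 were the 3 of 6 epithelial markers that did not. All 8 mesenchymal markers reached it, with a median knockdown change of -0.40 (3 above and 5 below no change). COL1A1 alone among them passed the test, at 1.49 ± 0.25 (adjusted p = 0.0449). Its part in the results below was not tested.

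Per kilobase of coding sequence, the 76 genes had a median level of 1200.5 CPM over the 9 libraries, and 62 of them lay within 2-fold of it. RPL41, whose 75 coding bases make the shortest member, was highest at 7456 CPM per kb, a value that rests on so short a length. RPS18, RPL13A, RPL38 and RPS27 followed at 4320.0, 2659.9, 2421 and 2307 CPM per kb. At the other end, RPS10 stood at 11.1, RPL36A at 14.2, RPL17 at 18.2 and RPL26 at 78.5 CPM per kb, each under 10% of the median. RPS10, RPL36A and RPL17 share exons with the readthrough loci, which were at 0 in all libraries, and reads that fit several genes (5.55 to 6.18% of each library) were assigned to none. Pseudogenes named after a member, 1124 in the files, took 52.8% of the combined reads for RPS10, 25.0% for RPL26 and 12.8% for RPL23A. The levels of these genes are therefore uncertain. Reads aligned to more than 1 place were 3.60 to 3.95% in series A and 1.89 to 2.07% in series B, and the pseudogenes took 0.0797 to 0.0887% and 0.127 to 0.141% of gene reads. With each member summed with its pseudogenes, 0 members were called between knockdown and control, as without. The part of reads aligned to several places in the differences between libraries was not tested. RPS15A and RPL23A were the next lowest at 177 and 180.1 CPM per kb.

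Together the 76 genes took 4.11% of gene reads in control 1 and 5.38% in control 2. Their share was 4.02%, 4.35% and 5.09% in knockdowns 1, 2 and 3. With re-expression it was 5.04% for the wild type, 5.48% for G302V, 4.84% for R534H and 4.72% for P568L. The 3 libraries of series A were the 3 lowest of all 9, and the controls and knockdowns overlapped. The mean share was 4.49% ± 0.548 (SD, n = 3) under knockdown and 4.75% ± 0.893 (SD, n = 2) in the controls. That difference of -0.260 percentage points was smaller than the spread between libraries (two-sided exact permutation test, p = 0.6, where the smallest possible p is 0.1). It was -0.891 points without control 1 and 0.371 without control 2, so that its sign depended on the control. The mutants, at 5.01% ± 0.408 (SD, n = 3), differed from knockdown by 0.525 points (exact permutation p = 0.3, smallest possible 0.1). The latter comparison sets 3 libraries of series B against 2 of series A and 1 of series B.

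Knockdown of DDX3X moved no ribosomal protein gene past the threshold of the test. With the series as a term of the model, none of the 76 passed an adjusted p of 0.05 between knockdown and control, and 39 lay above and 37 below no change. Over all genes, 0.675% passed. At an unadjusted p under 0.05 there were 19 ribosomal protein genes (25.0%), 15 higher and 4 lower, against 22.03% of all genes. DESeq2 called 8 of the 76, against 8.13% of all genes. The median log2 fold change was 0.022 over the 76 genes and -0.0090 over all genes, and their SD was 0.42 against 0.69. The large and small subunit genes had medians of -0.0045 and 0.023. Single members nevertheless spread from -0.69 for RPL23A to 1.48 for RPL17. In the absence of control 2, or of knockdown 3, 15 members were called (19.7%), against 13% and 12.9% of all genes. All of those values then rest on control 1, the lone control of series A.

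The acidic P stalk recruits the GTPases that drive elongation, and its parts spread widely between the libraries. RPLP0, its base, stood at 1346 CPM in control 1 and 1982 in control 2, 1266, 1345 and 1719 in knockdowns 1, 2 and 3, 1759 with wild-type DDX3X, 1916 with G302V, 1794 with R534H and 1755 with P568L. All 3 libraries of series A lay below all 6 of series B. RPLP1, a stalk dimer protein, stood at 135 CPM in control 1 and 725 in control 2, 610.3, 610.4 and 674 in knockdowns 1, 2 and 3, 639 with wild-type DDX3X, 696 with G302V, 729 with R534H and 733 with P568L. Control 1 was far below the other 8 libraries, which lay within 610.3 to 733 CPM. RPLP2, its partner in the dimer, stood at 127 CPM in control 1 and 429.6 in control 2, 439, 444 and 402 in knockdowns 1, 2 and 3, 396 with wild-type DDX3X, 427 with G302V, 439 with R534H and 384 with P568L. Again control 1 was alone at the bottom. The fitted knockdown changes were -0.11 ± 0.14 for RPLP0 (edgeR adjusted p = 0.682), 1.14 ± 0.44 for RPLP1 (0.17) and 0.95 ± 0.36 for RPLP2 (0.173). Left without control 1, the values became -0.11 for RPLP1 and -0.10 for RPLP2. RPL12, which binds beside the stalk base, stood at 837 CPM in control 1, 724 in knockdown 1 and 833 in knockdown 2 of series A, and in series B 1039 in control 2, 996 in knockdown 3, 929 with the wild type and 1046, 907 and 1009 with the 3 mutants in the order above, with a knockdown change of -0.086 ± 0.15 (adjusted p = 0.781). Per coding kilobase, RPLP1 was 0.279 times RPLP0 in control 1 and 1.01 to 1.34 times RPLP0 in the other libraries. The ratio of RPLP2 to RPLP0 was 0.260 in control 1 and 0.598 to 0.957 elsewhere. RPL12 to RPLP0 varied little, from 0.971 to 1.19 in all 9.

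3 more genes with high knockdown estimates had the same outlying library. RPL36, a large subunit protein, stood at 78.1 CPM in control 1 and 393 in control 2, 272, 310.3 and 506 in knockdowns 1, 2 and 3, 478 with wild-type DDX3X, 514 with G302V, 464 with R534H and 382 with P568L. RPS28, which lies close to the mRNA exit of the small subunit, stood at 24.2 CPM in control 1, 113 in knockdown 1 and 72.7 in knockdown 2 of series A, and in series B 188 in control 2, 306 in knockdown 3, 340.0 with the wild type and 295, 277 and 158 with the 3 mutants in the order above. Control 1 was the lowest library for both, at 18.2% of the median of the others for RPL36 and 10.4% for RPS28. RPL17, by the exit tunnel, was scarce, at 2.65 CPM in control 1 and 9.76 in control 2, 13.4, 17.7 and 12.1 in knockdowns 1, 2 and 3, 8.86 with wild-type DDX3X, 8.34 with G302V, 8.98 with R534H and 8.75 with P568L. Its count in control 1 was 34 reads. Their knockdown estimates were 1.21 ± 0.32 for RPL36 (edgeR adjusted p = 0.0876), 1.37 ± 0.37 for RPS28 (0.0895) and 1.48 ± 0.47 for RPL17 (0.12). Without control 1, they were 0.36, 0.70 and 0.30. When control 2 was absent instead, they were 1.90, 1.94 and 2.55, with adjusted p of 0.000332, 0.0225 and 0.000928.

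At the low end stood RPL23A and RPL6. RPL23A sits at the exit of the tunnel, where nascent chains meet their chaperones and the signal recognition particle. It stood at 139.7 CPM in control 1 and 104 in control 2, 101.2, 106 and 50.6 in knockdowns 1, 2 and 3, 53.5 with wild-type DDX3X, 63.7 with G302V, 65.7 with R534H and 74.8 with P568L. Knockdowns 1 and 3 and the 4 re-expression libraries were below both controls, and knockdown 2 was above control 2. Its knockdown change was -0.69 ± 0.18 (edgeR adjusted p = 0.0862), and -1.04 without control 1 (adjusted p = 0.30). RPL6, a large subunit protein, stood at 1234 CPM in control 1 and 1278 in control 2, 821, 925 and 893 in knockdowns 1, 2 and 3, 968 with wild-type DDX3X, 1019 with G302V, 841 with R534H and 965 with P568L. All 7 libraries with a hairpin lay below both controls, and the change was -0.51 ± 0.15 (adjusted p = 0.101). The value was -0.52 without control 1 and -0.50 without control 2, so that it did not rest on one of them. Over all its alternatives it ran from -0.55 to -0.35. With the coding GC trend removed, as described below, the RPL6 log2 ratios were -0.31 for G302V over control 2 and 0.35 for control 2 over control 1. The G302V library was then not below control 1. RPS3, at the mRNA entry of the small subunit, was the only other member with all 7 hairpin libraries below both controls. It stood at 1003 CPM in control 1, 793 in knockdown 1 and 927 in knockdown 2 of series A, and in series B 1084 in control 2, 897 in knockdown 3, 943 with the wild type and 955, 758 and 764 with the 3 mutants in the order above, with a change of -0.24 ± 0.16 (adjusted p = 0.413). These were 2 of 76 members (2.63%), against 5.04% of all genes, and no member had all 7 above both controls, against 5.6% of all genes.

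RPL5 and RPL11 form the 5S particle with the 5S rRNA and, outside the ribosome, hold MDM2. RPL5 stood at 1643 CPM in control 1 and 1254 in control 2, 1374, 1449 and 1069 in knockdowns 1, 2 and 3, 1030.4 with wild-type DDX3X, 1222 with G302V, 1061 with R534H and 1155 with P568L. RPL11 stood at 1114 CPM in control 1 and 826 in control 2, 838, 935 and 661 in knockdowns 1, 2 and 3, 691 with wild-type DDX3X, 715 with G302V, 621 with R534H and 664 with P568L. In both genes each knockdown library was below the control of its own series. With the trend of each library with coding GC removed, as described below, this held for RPL11 only. The RPL5 log2 ratios were then 0.016, 0.10 and -0.13 for knockdowns 1, 2 and 3. Without that removal, the fitted changes were -0.22 ± 0.14 for RPL5 (edgeR adjusted p = 0.383) and -0.33 ± 0.14 for RPL11 (0.215), and neither passed. The ratio of RPL11 to RPL5 per coding kilobase stayed between 0.959 and 1.13 in all 9 libraries. RPS6, the substrate of the S6 kinases, stood at 699 CPM in control 1, 598 in knockdown 1 and 619 in knockdown 2 of series A, and in series B 669 in control 2, 582 in knockdown 3, 573 with the wild type and 681, 559 and 647 with the 3 mutants in the order above. Its knockdown change was -0.20 ± 0.15 (adjusted p = 0.458). Near the peptidyl transferase centre, RPL3 had 0.035 ± 0.14 (0.912) and RPL10 0.11 ± 0.16 (0.745). RPL4, which lines the exit tunnel, had -0.11 ± 0.14 (0.676), and RPL10A, of the L1 stalk, -0.12 ± 0.14 (0.663). Among small subunit proteins, RPS2 at the mRNA entry had 0.46 ± 0.19 (0.187), RPS14 of the platform 0.25 ± 0.16 (0.403) and RPS26 at the mRNA exit -0.051 ± 0.16 (0.888). RPS19, RPSA and RPS4X had 0.46 ± 0.19 (0.204), 0.11 ± 0.15 (0.726) and -0.21 ± 0.14 (0.407).

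Counted without a model, 23 of the 76 (30.3%) were lower in each of the 3 knockdown libraries than in the control of their series, against 25.5% of all genes. They included RPL4, RPL5, RPL6, RPL11, RPL12, RPLP0, RPS3, RPS4X and RPS6. With the trend of each library with coding GC removed, as described below, RPL6, RPL11, RPS3 and RPS4X stayed lower in all 3. RPL4, RPL5, RPL12, RPLP0 and RPS6 did not. Another 17 (22.4%) were higher in all 3, against 23.8% of all genes, among them RPL8, RPL13A, RPL18, RPL36, RPS2, RPS9, RPS19 and RPS28. Both shares are near those of all genes. Since knockdowns 1 and 2 share control 1, their directions are not independent. The spread among the 76 was larger in series A, where the SD of the log2 ratios was 0.67 for knockdown 1 and 0.65 for knockdown 2 over control 1, than for knockdown 3 over control 2, where it was 0.27. Over all genes the SD was 0.85, 0.81 and 0.56. Ratios beyond 2-fold were found for 8, 10 and 1 of the 76 genes in that order, against 17.6%, 16.3% and 7.60% of all genes. The 2 sets were not matched for level: 70 of the 76 had a mean of 100 CPM or more, against 2356 of all 16155 genes. The medians of the 3 ratios were -0.036, 0.0068 and -0.053.

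The knockdown effect differed between the series in 7 members (9.21%, against 3.19% of all genes), of which 6 are given here. In all 7 it was lower in series B, as it was in 477 of the 516 genes called over the whole table. The difference of the log2 changes was -2.28 ± 0.29 for RPLP1 (edgeR interaction term, adjusted p = 0.00199), -2.24 ± 0.53 for RPL17 (0.0414) and -1.89 ± 0.30 for RPLP2 (0.00493). It was -1.54 ± 0.34 for RPL36 (0.0311), -1.28 ± 0.29 for RPS15 (0.0365) and -1.19 ± 0.29 for RPL28 (0.0496). RPL28, a large subunit protein, stood at 196 CPM in control 1 and 721 in control 2, 459.9, 435 and 725 in knockdowns 1, 2 and 3, 655 with wild-type DDX3X, 776 with G302V, 751 with R534H and 688 with P568L. RPS15, of the small subunit head, stood at 145 CPM in control 1 and 332 in control 2, 341, 328 and 314 in knockdowns 1, 2 and 3, 282 with wild-type DDX3X, 305 with G302V, 276 with R534H and 305 with P568L. In both, control 1 was the lowest library of all 9. Each series has 1 control, and control 1 alone is parental cells, so that series and kind of control cannot be told apart in this term. The count of 7 fell to 4, 2 and 3 without G302V, R534H or P568L, against 2.94%, 2.13% and 1.73% of all genes. In a fit of the control and knockdown libraries alone it was 0, where 1 gene was called over the whole table. DESeq2 called 7.

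Base composition moved with this pattern. In control 1 the deviation of a member from its mean over the 9 libraries had a Spearman correlation of -0.70 with the GC content of its coding sequence (n = 76), the same as over 11648 genes of 5 CPM or more. In control 2 the correlation was 0.60 for the members and 0.35 for all those genes, and in knockdown 3 it was 0.58 and 0.55. In control 1 all genes above 60% GC had a median log2 deviation of -0.92, and the 7 members of that class -1.04. In the class of 55 to 60% the medians were -0.30 for all genes and -0.90 for 11 members. RPLP1, at 54.97% GC, deviated by -2.06 in control 1. The genes of its class, 50 to 55% GC, had a median of -0.0018, and it lies beside the next class, whose median was -0.30. The knockdown fold changes of the 76 members had a Spearman correlation of 0.60 with GC, and 0.29 once the trend with coding GC had been removed from each library. After that removal, which was chosen after seeing the data, RPLP1 and RPLP2 were the 2 of the 7 differences between series still called, at -2.27 (adjusted p = 0.0186) and -1.83 (0.0353). With the trend of whole-transcript GC removed, 1 was called. These correlations are across genes, which share libraries and are not replicates, and the part of base composition in the knockdown values was not tested further.

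In control 1, 25 members (32.9%) lay below all 8 other libraries, against 25.5% of all genes, and 15 (19.7%) above all 8, against 24.8%. The 25 had a median coding GC of 57.6% and the 15 one of 47.9%. The log2 differences between series had an SD of 0.66 over the 76 members, against 0.42 for knockdown. With the knockdown and re-expression groups in the model, 21 of the 76 members (27.6%) differed between series B and series A, against 11.3% of all genes. Of these, 17 were higher in series B and 4 lower. With the trend on GC content removed, 10 members (7 higher, 3 lower) and 516 genes were called, and with coding GC in its place 9 members (7 higher, 2 lower) and 503 genes, against 1818 genes without either. Without a model, 29 members (38.2%) were higher in each of the 6 libraries of series B than in all 3 of series A, against 11.3% of all genes in this count also, and 9 (11.8%) lower in all, against 12.5%.

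RPL41 and RPS28 were among the members higher in series B, and RPL26 and RPS15A among those lower. RPL41, at the interface of the subunits, stood at 273 CPM in control 1, 224 in knockdown 1 and 301 in knockdown 2 of series A, and in series B 681 in control 2, 669 in knockdown 3, 764 with the wild type and 767, 691 and 664 with the 3 mutants in the order above. Its difference between the series was 1.34 ± 0.16 (edgeR adjusted p = 0.00239), and no library of one series reached the range of the other. RPL26, near the exit tunnel, stood at 66.8 CPM in control 1, 62.5 in knockdown 1 and 76.7 in knockdown 2 of series A, and in series B 21.1 in control 2, 12.6 in knockdown 3, 16.7 with the wild type and 17.4, 20.2 and 13.4 with the 3 mutants in the order above, a difference of -2.10 ± 0.27 (adjusted p = 0.00339). RPS15A, of the small subunit, stood at 117 CPM in control 1, 108 in knockdown 1 and 105 in knockdown 2 of series A, and in series B 50.5 in control 2, 46.9 in knockdown 3, 59 with the wild type and 45.9, 44.2 and 45 with the 3 mutants in the order above, a difference of -1.19 ± 0.15 (adjusted p = 0.00332). For RPS28 the difference was 2.25 ± 0.35 (0.00856). RPL23A (-0.76 ± 0.19) and RPL9 (-0.59 ± 0.14) were the other 2 lower members. The 17 higher ones also included RPL36, RPL28, RPL29, RPL15, RPS2, RPS9, RPL18, RPS19, RPS16, RPL13A, RPL35, RPL10 and RPL3, from 0.51 ± 0.13 for RPL3 to 1.47 ± 0.31 for RPL36. Reads that align to several places, which are common for genes with many pseudogenes, made up 3.60 to 3.95% of reads in series A and 1.89 to 2.07% in series B. Across the 76 members, the difference between series and the number of pseudogenes had a Spearman correlation of -0.33. It was -0.088 with the coding GC trend removed. The part of such reads in these differences was not tested.

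**Figure D1:**
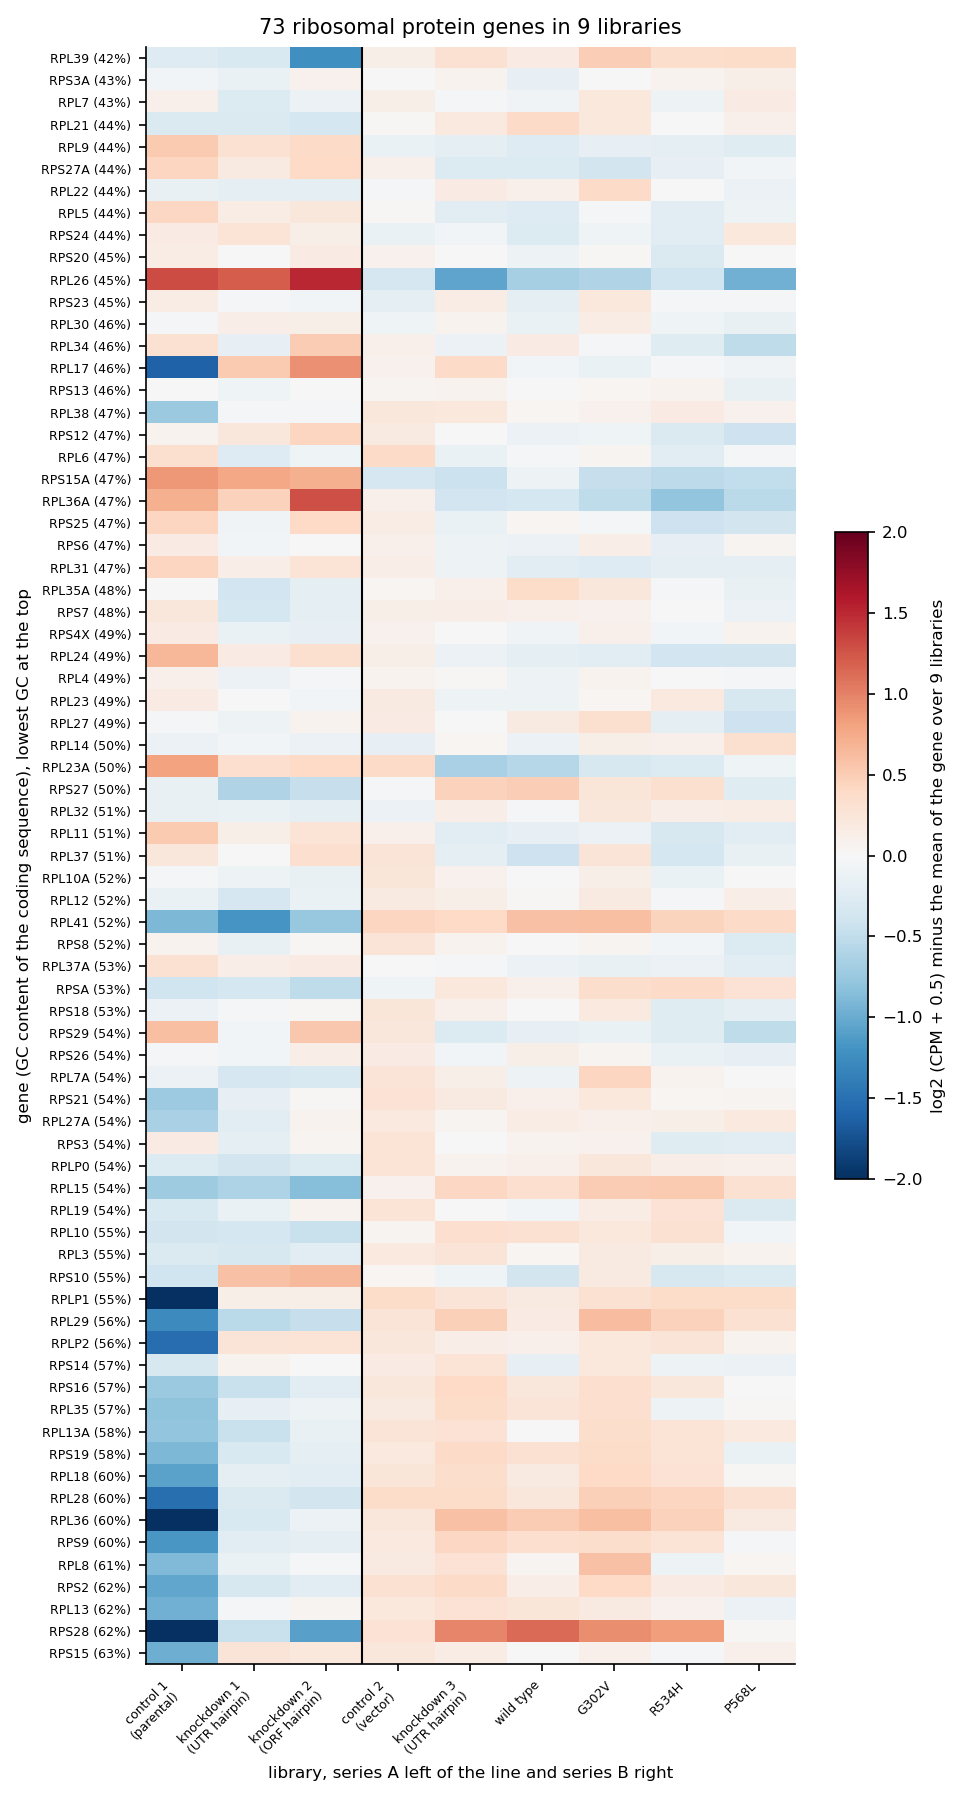
Log2 deviation of each of 73 genes (rows, ordered by coding GC) in each library (columns, series A left of the line) from its mean over the 9 libraries, on a colour scale that ends at 2 in both directions. Control 1 stands apart from the other 8 libraries, and the 6 libraries of series B resemble each other.

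The 2 hairpins did not differ past the threshold in any member. Between knockdown 2, with the ORF hairpin, and the libraries with the 3' UTR hairpin, 0 members passed, as did 0% of all genes. At an unadjusted p under 0.05 there were 4 members (5.26%), against 9.11% of all genes, and DESeq2 called 1, against 0.545% of all genes. The member furthest apart was RPL39, of the exit tunnel, at 226 CPM in control 1 and 290.3 in control 2, 218, 115 and 331 in knockdowns 1, 2 and 3, 302.3 with wild-type DDX3X, 376 with G302V, 341 with R534H and 345 with P568L. Knockdown 2 was the lowest library, and the difference was -0.99 ± 0.21 (95% interval -1.47 to -0.51, edgeR adjusted p = 0.239). RPL36A, at 20 to 125 reads a library, RPL34 and RPS29 had estimates of 0.94 ± 0.41, 0.60 ± 0.25 and 0.56 ± 0.23 in the other direction, with adjusted p of 0.534, 0.507 and 0.495. The median over the 76 was 0.16, against 0.0040 over all genes, with 56 above and 20 below no change. Its sign changed in a fit with no series term. There is 1 library with the ORF hairpin, and it is assumed to vary like the other groups. In the absence of knockdown 1, 8 members were called, against 919 of all 16155 genes.

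In the cells with tagged DDX3X no member passed the threshold either. Wild type against knockdown gave 0 members called, as it did 0% of all genes, and DESeq2 called 0, while 1 member (1.32%) had an unadjusted p under 0.05, against 2.92% of all genes. The median was -0.11, against -0.016 over all genes, and 58 of the 76 lay below no change. With no series term in the fit, the sign of the members' median changed. The median standard error of a member was 0.24. The lowest were RPL17 at -1.12 ± 0.64, RPLP1 at -0.83 ± 0.59 and RPS10 at -0.71 ± 0.54, and the highest RPL35A at 0.37 ± 0.23, all with an adjusted p of 1 from edgeR. Those fitted values draw on series A too, through the series term. Set directly against knockdown 3 of the same series, the log2 ratios of the wild type were -0.42 for RPL17, -0.076 for RPLP1, -0.29 for RPS10 and 0.27 for RPL35A. For the mutants against knockdown the counts were again 0 members, 0% of all genes, 1 member at an unadjusted p under 0.05 (against 5.53% of all genes) and 0 by DESeq2. The median was -0.10, against 0.0057 over all genes, with 50 below no change. Here too the sign of the members' median changed with no series term. RPL17 was lowest at -1.15 ± 0.50 (95% interval -2.25 to -0.04, adjusted p = 0.831) and RPL39 highest at 0.27 ± 0.28 (0.873). The direct log2 ratios to knockdown 3 with G302V, R534H and P568L were -0.51, -0.41 and -0.44 for RPL17. For RPL39 they were 0.18, 0.043 and 0.058. Both comparisons rest on knockdown 3 through the series term, and without it 7 and 8 members were called, against 597 and 999 of all 16155 genes. The knockdown libraries left are then all of series A, and the re-expression libraries all of series B.

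Within series B, where knockdown 3 carries the same hairpin, the ratios were small. The median log2 ratio to knockdown 3 was -0.076 for the wild type (SD 0.16 over the 76 members), 0.049 for G302V (0.15), -0.091 for R534H (0.18) and -0.14 for P568L (0.23). No member was beyond 2-fold in any of the 4, against 3.47 to 3.95% of all genes, whose SD was 0.43 to 0.44. Here too, all genes were not matched to the members in level, and most of them stood lower. All 4 re-expression libraries lay below knockdown 3 in 19 members (25.0%), against 17.9% of all genes, among them RPL3, RPL10, RPL13, RPS7, RPS14, RPS16 and RPS19. They lay above it in 4 (5.26%), against 19.2% of all genes. These were RPL23A, RPL26, RPL27A and RPLP0. All 4 ratios share 1 library as denominator. RPS19, a small subunit protein whose loss of 1 copy is a known cause of Diamond-Blackfan anaemia, stood at 417 CPM in control 1, 631 in knockdown 1 and 691 in knockdown 2 of series A, and in series B 891 in control 2, 1021 in knockdown 3, 963 with the wild type and 1008, 946 and 714 with the 3 mutants in the order above. RPS28 had the widest range, from 158 CPM with P568L to 340.0 with the wild type.

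Mutants and wild type did not differ past the threshold in any member (0 called, 0% of all genes, 0 unadjusted, 0 by DESeq2). The median was 0.027, with a range from -0.48 ± 0.41 for RPS28 to 0.35 ± 0.23 for RPL23A. Their 95% intervals were -1.39 to 0.43 and -0.17 to 0.87, so that differences inside them were not detectable with 1 wild-type library. Against the controls, the mutants too gave 0 called, against 0.0186% of all genes, and DESeq2 called 0, while 4 members (5.26%) had an unadjusted p under 0.05, against 11.9% of all genes. Those 4 were lower, and included RPL24 at -0.48 ± 0.16 (edgeR adjusted p = 0.303), RPL6 at -0.44 ± 0.16 (0.346) and RPL23A at -0.45 ± 0.19 (0.407). RPL24, which lies at a bridge between the subunits, stood at 557 CPM in control 1 and 382 in control 2, 394, 441 and 324 in knockdowns 1, 2 and 3, 312 with wild-type DDX3X, 306 with G302V, 269 with R534H and 274 with P568L. It was highest in control 1, and the 6 libraries of series B were its 6 lowest. In the absence of control 2, 7 members were called, against 781 of all 16155 genes.

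Within series B most of the genes lay in a narrow range. The highest of the 6 libraries was 1.33 times the lowest for the median member, and 63 of the 76 (82.9%) stayed under 1.5 times. Among members of 100 CPM or more it was 61 of 70 (87.1%), against 1752 of 2356 genes at that level (74.4%). RPL9, RPL27A and RPL4 were among the tightest, at 1.10, 1.10 and 1.13 times. RPS28, RPL36A, RPL23A and RPS27 were the widest, at 2.15, 2.05, 2.05 and 1.67 times. RPL4 stood at 2048 CPM in control 1 and 2021 in control 2, 1758, 1895 and 1959 in knockdowns 1, 2 and 3, 1790.3 with wild-type DDX3X, 2024 with G302V, 1907 with R534H and 1874 with P568L. The 2 series overlapped for it.

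Genes around the ribosomal proteins were read from lists, and none of their members was called between knockdown and control. The lists held 7 measured paralogues, 4 ubiquitin-fused and other precursors, 19 other TOP genes, 11 snoRNA host genes, 59 ribosome biogenesis factors, 14 genes of RNA polymerase I, 11 dedicated chaperones, 21 mTOR and MYC regulators, 5 genes of the 5S particle checkpoint and 75 mitochondrial ribosomal proteins. Their median log2 changes ran from -0.47 for the 5 checkpoint genes to 0.15 for the mTOR and MYC regulators. The paralogues had a median of -0.041, and RPL22L1, RPL36AL and RPS27L had changes of -0.55 ± 0.19, -0.53 ± 0.20 and 0.51 ± 0.21 (edgeR adjusted p = 0.144, 0.176 and 0.202). FAU, the precursor of a small subunit protein fused to a ubiquitin-like one, stood lowest in control 1, with the other 8 libraries at 138.7 to 184 CPM. Its knockdown change was 0.70 ± 0.23 (adjusted p = 0.13). The knockdown effect differed between the series for 12 genes of these lists, among 3.19% of all genes. It was lower in series B for all 12, as it was for 477 of the 516 genes called over the whole table. The 12 were EEF1D and EEF2 of 19 other TOP genes, RRS1 of 59 biogenesis factors, MYC and MLST8 of 21 regulators, NOP53 of 5 checkpoint genes and 6 of 75 mitochondrial ribosomal proteins. With the trend on GC content removed, the genes called over the whole table fell from 516 to 5, and with coding GC to 49. EEF2, the elongation factor that acts at the P stalk, stood at 1284 CPM in control 1 and 3034 to 5448 in the other libraries.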

How the data were processed

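Poly(A)-selected RNA of 9 Daoy populations was made into TruSeq libraries and read as 100 nt single ends, per the labels' protocols. The kit does not mark strand. The values are raw read counts per Ensembl gene, as deposited by the authors. GRCh37/hg19 is the build, and HTSeq, HISAT2, bcl2fastq and DESeq2 are the tools, that the submitters' processing notes list. Their versions and roles are not stated there. The summary lines for reads on no gene (20.3 to 35.8% of reads) were left out. Symbols came from GENCODE v29, which matched 52338 of 57820 identifiers. Coding length and GC were taken from it too, and it is of another build, GRCh38, so no coordinate of the files was used. The members, lists and tests were chosen with earlier results of these data known.

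Genes with 1 CPM or more in 2 or more libraries (16155) were fitted with edgeR 4.0.16 (R 4.3.3): TMM scaling, robust quasi-likelihood, group and series as terms over all 9 libraries. There were 4 residual degrees of freedom. The hairpin comparison and the difference of the knockdown effect between series came from separate fits with 3 each. The first divided the knockdowns by hairpin. The second divided controls and knockdowns by series, with no separate term for series. P-values were adjusted by Benjamini-Hochberg over all genes and called at 0.05. The script was tested on simulated counts. The term for series was reported besides the planned comparisons. Errors are standard errors unless given as SD. Named genes were every member called, the 5 highest and 5 lowest of a comparison, a list of functional roles, list genes called and the paralogues and precursors, of which the text gives those that show its patterns. Some genes are counted in the totals but not reported here by name or drawn in the figures. Members such as RPL9 and RPL8, named for their range or direction, and EEF2's levels were picked after their values were seen. Alternatives were DESeq2 1.42.0 and its size factors, TMM without the members, other filters, no series term, GC trends removed, pseudogenes added, fewer groups and each library left out. No 2 libraries were copies of each other. Precision for a count covers counting error only, since reads carry no molecular identifiers.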

Additional observations from a re-analysis of the deposited data

Results flagged for a closer look

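For 6 of the members described here the knockdown effect differed between the 2 series by edgeR's interaction term, and all were lower in series B. So were 477 of the 516 genes called over the whole table. The differences on the log2 scale were -2.28 for RPLP1, -2.24 for RPL17, -1.89 for RPLP2, -1.54 for RPL36, -1.28 for RPS15 and -1.19 for RPL28. In each of the 6, control 1 was the lowest of the 9 libraries. Each series has 1 control, so that the number of libraries behind each difference is 2 knockdowns and 1 control in series A and 1 of each in series B.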

How the results depend on the processing

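The counts of called members moved with the libraries and filters, and so did those of all genes. With no filter on low counts, 5.79% of all genes passed for knockdown against control and 0.881% for the ORF against the 3' UTR hairpin. DESeq2's Wald test called 8.13% and 0.545% of all genes in the same order. For knockdown against control, 0 members were called, but 10 with no filter on low counts and 8 with DESeq2's Wald test, and leaving out 1 library gave 0 to 15 (15 without control 2 and 15 without knockdown 3). For the ORF against the 3' UTR hairpin it was 0, against 1 with no filter and 1 with DESeq2. It also moved with 1 library left out, but without knockdown 1 each hairpin has 1 library, in a different series from the other. Leaving out 1 library gave 0 to 7 for wild type against knockdown, 0 to 8 for mutants against knockdown and 0 to 7 for mutants against control. For the knockdown effect in series B minus series A the count of 7 became 1 with the GC trend removed, 2 with the coding GC trend removed (added after seeing the data), 0 with only the groups compared, and 2 to 8 with 1 library left out. Over all genes, 516 were called for this difference, 5 and 49 with those GC trends removed and 1 with only the groups compared. The other alternatives kept these counts of members within 1.5 times. For the share of gene reads, the exact permutation test could not pass under any alternative. Its smallest possible p was 0.1 to 0.333, so these alternatives decide nothing. With no series term the median log2 change was 0.035 for wild type against knockdown, 0.064 for mutants against knockdown and -0.031 for the ORF against the 3' UTR hairpin. Replicate numbers 1 and 2 occur in both controls and knockdowns, but the labels do not tie them. Deviations of the pairs correlated at 0.36 and -0.26, and with the number as a replicate block 0 members and 0 genes were called, with a median of -0.027, against 109 genes without it. Over its alternatives the count of all genes called between knockdown and control ran from 0 to 2097. With 1 to 3 libraries in a group, small changes cannot be seen, and the cause of these shifts was not tested.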

Other observations

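Paralogues were set beside their members per coding kilobase. RPL26L1 stood at 0.396 to 0.730 times RPL26 in series A and at 2.15 to 5.01 times in series B, where RPL26 itself was low. RPL36AL was 12.4 to 36.9 times RPL36A, whose reads are uncertain, in the 9 libraries. RPS27L was 0.041 to 0.159 times RPS27, highest in knockdown 1. RPL22L1 was 0.123 times RPL22 in control 1 and 0.038 to 0.095 times in the others. RPL39L was 0.036 to 0.133 times RPL39, with its highest value in knockdown 2, where RPL39 was lowest. These ratios are values of single libraries, with no test.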
